A study of Homo sapiens with 4 samples.

Results

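Metallothioneins were described in HCT116 cells, an established human colon carcinoma line, through the 7 genes MT1E, MT1F, MT1G, MT1H, MT1M, MT1X and MT2A. Members were the probe sets whose platform annotation gives one of these symbols and no other, 11 of the 54675 probe sets on the array. Each of the 7 genes had at least 1. The cells were grown as multicellular spheroids (MCS), three-dimensional aggregates in which supply of oxygen and nutrients falls towards the core, or as monolayers. Neither group was treated, both came from the same line, and each consisted of 2 independent cultures with 1 array per culture, called spheroid 1 and 2 and monolayer 1 and 2 by the numbers in their labels. Whole spheroids were extracted, so outer and inner cells were not measured apart, and fewer cells of a kind and less RNA per cell cannot be told apart.

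Metallothioneins are small, cysteine-rich proteins that bind zinc and copper and can also take up cadmium and other metals. The transcription factor MTF1, when loaded with zinc, binds metal response elements upstream of these genes and switches them on, so their mRNA is widely used as a readout of free zinc in a cell. The same genes also respond to glucocorticoids, oxidative stress and low oxygen. In human they lie in 1 cluster on chromosome 16, where RefSeq places the members in the order MT2A, MT1E, MT1M, MT1F, MT1G, MT1H and MT1X, with other family members and pseudogenes between them.

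Upstream sequence is shown because the metal response elements are written in it, for every member that had an entry. RefSeq's promoter table (GRCh38.p14) held MT2A, MT1H and MT1X and had no entry matched for MT1E, MT1F, MT1G and MT1M. The members with an entry were those called higher, so their matches could not be compared with those of uncalled members. Each sequence is the 250 bases before the start of the gene on the + strand, 5′ to 3′, with matches to the core of the metal response element in capitals. The core was searched as TGCACNC or TGCGCNC on both strands, where N is any base, and a match on the reverse strand appears as its reverse complement.
MT2A, chr16:56608334-56608583: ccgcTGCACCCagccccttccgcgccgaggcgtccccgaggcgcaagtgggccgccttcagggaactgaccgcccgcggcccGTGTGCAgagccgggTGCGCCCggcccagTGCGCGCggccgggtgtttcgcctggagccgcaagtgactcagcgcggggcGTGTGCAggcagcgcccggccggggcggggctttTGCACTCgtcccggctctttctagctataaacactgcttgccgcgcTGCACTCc
MT1H, chr16:56669564-56669813: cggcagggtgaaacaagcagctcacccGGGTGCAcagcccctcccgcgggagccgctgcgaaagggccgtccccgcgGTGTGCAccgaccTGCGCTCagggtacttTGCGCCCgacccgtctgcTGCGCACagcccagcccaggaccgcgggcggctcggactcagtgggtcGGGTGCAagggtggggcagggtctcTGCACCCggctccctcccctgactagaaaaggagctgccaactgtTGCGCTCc
MT1X, chr16:56682220-56682469: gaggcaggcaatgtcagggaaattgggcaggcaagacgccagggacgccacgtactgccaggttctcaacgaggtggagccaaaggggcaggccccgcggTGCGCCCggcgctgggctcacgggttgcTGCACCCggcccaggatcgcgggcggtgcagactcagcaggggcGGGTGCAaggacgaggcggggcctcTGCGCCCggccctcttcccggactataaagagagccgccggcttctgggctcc

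MT1H had 8 matches, 5 on the forward and 3 on the reverse strand. MT2A had 7, 5 forward and 2 reverse, and MT1X had 4, 3 forward and 1 reverse. Such density is uncommon in windows of this length: of 35114 promoters in the table, 24.8% held at least 1 match, 0.37% held at least 4, 0.0313% at least 7 and 0.0171% at least 8. Counted from the start of the gene, each held a forward match at nearly the same place, -54 to -48 in MT2A and -53 to -47 in MT1H and MT1X. The nearest reverse match lay at -88 to -82 in MT2A and at -78 to -72 in MT1H and MT1X. MT2A and MT1X also held a TATA box (TATAAA on the forward strand), found in 6.8% of all promoters, whereas none was matched upstream of MT1H. The core of the hypoxia response element, searched as ACGTG or GCGTG on both strands, occurred 1 time in MT2A, where it overlaps a metal response element, and 1 time in MT1X, away from them, and at least 1 time in 43.2% of all promoters. Matches describe letters in these windows and not occupied sites.

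**Figure D1:**
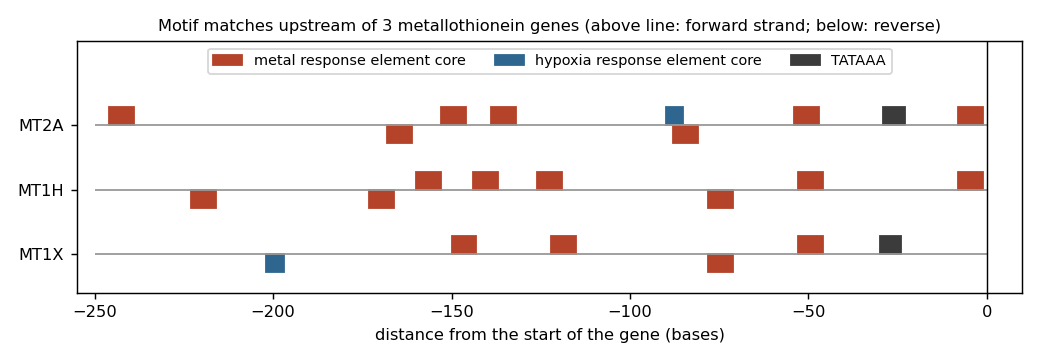
Matches to the metal response element core, the hypoxia response element core and TATAAA in the 250 bases before the start of MT2A, MT1H and MT1X. The x axis gives the distance from the start of the gene in bases, with boxes above each line for the forward strand and below it for the reverse strand. MT1H has 8 metal response element matches, MT2A 7 and MT1X 4.

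Metallothionein probe sets were bright in both culture types, and those called different were higher in spheroids, a direction that turned for every one of them but 204326_x_at when arrays were scaled to their Bacillus controls. Signals are MAS5 intensities in arbitrary units, scaled by the authors to one mean per array. Of the 11 probe sets, 9 had a mean above 300 units and were tested, with 1587 as their lowest signal on any array. Both spheroid arrays lay above both monolayer arrays in 6 of these 9, against 33.4% of the 15911 probe sets tested, and the groups overlapped in 3. Among the 6, MT1E 216336_x_at and MT1F 213629_x_at were apart by little. Their lower spheroid and higher monolayer had 11898 against 11862 and 1844 against 1763. By limma, 4 of 9 were higher in spheroids at an adjusted p under 0.05, against 16.8% of all probe sets tested. Of the rest, 0 were lower (16.6% of all) and 5 were not called. An unadjusted p under 0.05 was found for 5 of the 9, the 4 called and MT1F 213629_x_at. The median log2 difference, spheroid minus monolayer, was 0.51 over the 9 and -0.013 over all probe sets tested. With 1 probe set per gene, 3 of 6 tested members were called higher and 0 lower, against 19.0% and 20.6% of 8721 genes.

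All 9 tested probe sets carry the suffix _x_at, which Affymetrix gives to sets with probes that can also match other transcripts. The coding sequences of metallothioneins are near copies of each other, so the signal of each set may hold several family members, and how much each gene contributes was not tested. The members are therefore given per probe set.

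**Figure D2:**
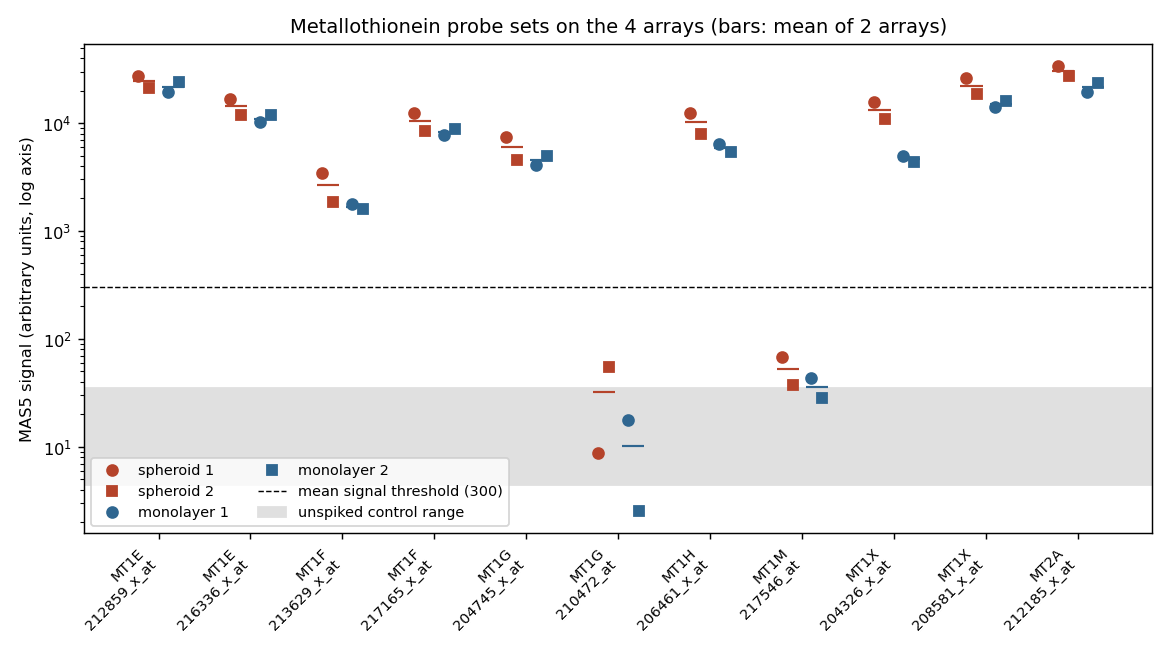
MAS5 signal of each of the 11 metallothionein probe sets on the 4 arrays, on a log axis in arbitrary units. Red symbols are spheroid arrays and blue symbols monolayer arrays, short bars are means of 2 arrays, the dashed line is the threshold of 300, and the grey band spans the unspiked bacterial controls (4.47 to 34.97). Spheroid 1 is the highest array in all 9 bright probe sets, a rank that refers to signals as the authors scaled them.

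The largest difference of the family was on 204326_x_at, annotated to MT1X, a member expressed in many tissues. Its signal was 15540 and 10870 in spheroids 1 and 2, against 4936 and 4345 in monolayers 1 and 2. The groups were far apart, spheroid 1 standing at 3.35 and spheroid 2 at 2.34 times the monolayer mean. The group means were 13205 ± 3303 in spheroids and 4641 ± 418 in monolayers (SD, n = 2 each), a ratio of 2.85. The log2 difference was 1.48 ± 0.17 (SE), with a 95% interval of 1.10 to 1.87 (limma, adjusted p = 0.000226). The transcript on which the platform based this set is in RefSeq that of MT1L, a transcribed pseudogene of the cluster, although the platform's symbol is MT1X. Its signal is therefore not assigned to MT1X alone.

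The second MT1X set, 208581_x_at, is based on the MT1X transcript itself and differed less. It had 25996 and 18561 in spheroids, against 14115 and 15876 in monolayers. The groups did not overlap, but spheroid 2 was at only 1.24 times the monolayer mean. The log2 difference was 0.55 ± 0.16 (95% interval 0.20 to 0.90, limma, adjusted p = 0.0215), and without spheroid 1 it was 0.31 and no longer called (adjusted p = 0.236).

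MT2A, the most widely expressed human metallothionein, was read by 212185_x_at. Signals were 33621 and 27432 in spheroids, against 19515 and 23444 in monolayers. Each spheroid exceeded each monolayer, spheroid 2 by less than spheroid 1. The means were 30527 ± 4376 in spheroids and 21480 ± 2778 in monolayers (SD, n = 2 each), and the log2 difference was 0.51 ± 0.14 (95% interval 0.20 to 0.81, limma, adjusted p = 0.0166). Without spheroid 1 the difference was 0.36 and the call was lost (adjusted p = 0.192).

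MT1H, whose promoter held the most metal response element matches of the 3, was read by 206461_x_at. It gave 12350 and 7992 in spheroids, against 6401 and 5368 in monolayers. The groups did not overlap, and the spheroid cultures were further from each other than the monolayer cultures. The means were 10171 ± 3082 in spheroids and 5885 ± 731 in monolayers (SD, n = 2 each). The log2 difference was 0.76 ± 0.19 (95% interval 0.33 to 1.19, limma, adjusted p = 0.0134) and fell short of a call at 0.45 without spheroid 1 (adjusted p = 0.122).

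MT1E was read by 2 bright probe sets, and neither was called. On 212859_x_at the signals were 27533 and 21108 in spheroids, against 19200 and 23950 in monolayers. Spheroid 2 lay below monolayer 2, and the log2 difference was 0.17 ± 0.15 (95% interval -0.17 to 0.51, limma, adjusted p = 0.426). Without spheroid 1 its sign turned, to -0.023. On 216336_x_at they were 16830 and 11898 in spheroids, against 10146 and 11862 in monolayers, with spheroid 2 and monolayer 2 almost level. The log2 difference there was 0.37 ± 0.17 (limma, adjusted p = 0.117), with 0.12 left without spheroid 1 and 0.62, a call, without spheroid 2.

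MT1F also had 2 bright probe sets. On 213629_x_at signals were 3451 and 1844 in spheroids, against 1763 and 1587 in monolayers. Spheroid 2 was close to the monolayers, and the log2 difference of 0.58 ± 0.25 was not called (limma, adjusted p = 0.102). The spread between the spheroid cultures was the widest of the 9 sets on this one, 1.87-fold, and the difference was 0.14 without spheroid 1 and 1.03, a call, without spheroid 2. On 217165_x_at signals were 12343 and 8480 in spheroids, against 7698 and 8746 in monolayers. Here spheroid 2 fell between the monolayers, and the log2 difference was 0.32 ± 0.17 (95% interval -0.07 to 0.70, limma, adjusted p = 0.187). It was 0.047 without spheroid 1 and 0.59, a call, without spheroid 2.

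MT1G, a member that is often silenced by methylation in carcinomas, had 1 bright probe set, 204745_x_at. Its signals were 7395 and 4545 in spheroids, against 4096 and 4961 in monolayers. The groups overlapped, and the log2 difference was 0.36 ± 0.21 (95% interval -0.11 to 0.83, limma, adjusted p = 0.216). It was 0.012 without spheroid 1 and 0.71, a call, without spheroid 2. The second set of MT1G, 210472_at, was not tested because its mean was below 300. It gave 8.85 and 55.1 in spheroids, against 17.9 and 2.54 in monolayers, on 3 of 4 arrays no brighter than the unspiked bacterial controls, which spanned 4.47 to 34.97.

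MT1M was the member without a tested probe set. On 217546_at it had 68.5 and 37.7 in spheroids, against 43.1 and 28.5 in monolayers. These values are close to the control range and the groups overlapped, so a difference could not be read at this signal.

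The spread between replicates had a pattern shared by the 9 tested probe sets, which may read the same transcripts and are not separate observations. Spheroid 1 was the highest of the 4 arrays in 9 of 9 tested probe sets, by 1.23 to 1.87 times over spheroid 2 (median 1.43), whereas over all probe sets tested the median of this ratio was 0.985. Monolayer 1 was below monolayer 2 in 6 of 9, with ratios of monolayer 2 over monolayer 1 from 0.839 to 1.25. The shares of all probe sets with these orders of arrays were not counted. These ranks and ratios refer to signals as the authors scaled them. The Bacillus controls were also higher on spheroid 1 than on spheroid 2, at 2.208 and 1.499 times the monolayer mean. Ranks after scaling to these controls were not counted. MT1HL1, a related gene outside the members, had 15334 and 15032 in spheroids, so spheroid 1 barely exceeded spheroid 2. For 204326_x_at the difference between culture types was larger than the gap between spheroids, and it alone was called without spheroid 1, at 1.23 (limma, adjusted p = 0.00237). Without spheroid 2, 8 of 9 probe sets were called higher by limma, against 12.3% of all probe sets, and without spheroid 1, 1 of 9, against 11.1%. In the fit of 1 probe set per gene, 5 of 6 members were called higher without spheroid 2, against 14.9% of all genes. Without spheroid 1 it was 0 of 6 (1 of 6 at an unadjusted p under 0.05), against 13.9%.

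**Figure D3:**
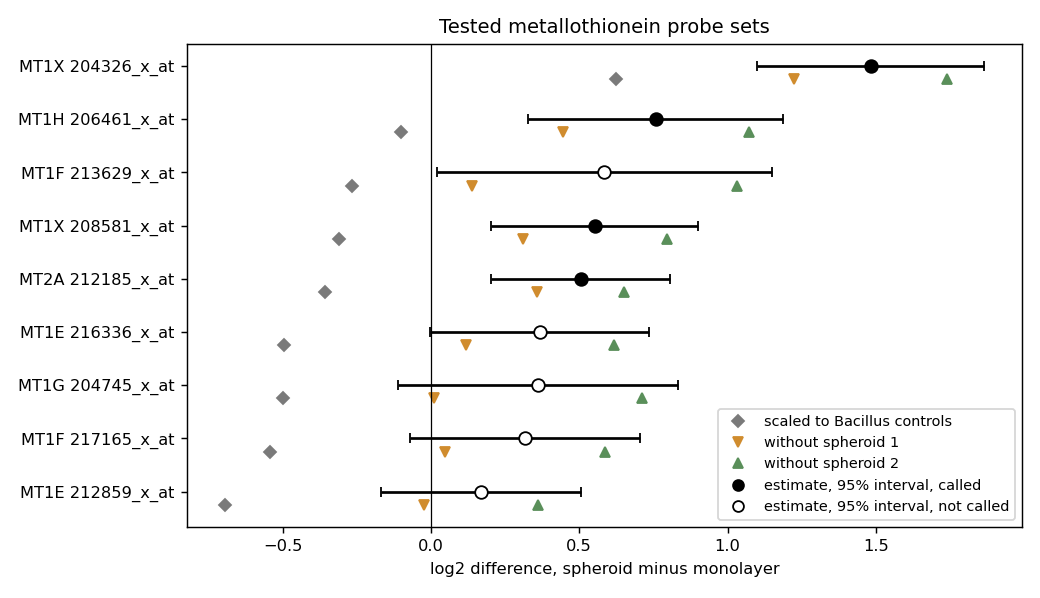
Log2 difference, spheroid minus monolayer, of the 9 tested probe sets with 95% intervals from limma, filled where the adjusted p was under 0.05. Triangles give the difference without spheroid 1 (pointing down) or spheroid 2 (pointing up), and diamonds the difference after scaling to the Bacillus controls, where all but 204326_x_at (0.62) are below 0. The order runs downwards in size, 1.48 at the top and 0.17 at the bottom.

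Ratios between probe sets on the same array do not depend on how arrays are scaled to each other, and they are given as a description. Of 36 pairs of member probe sets, 23 had ratios that did not overlap between spheroids and monolayers, against 68.0% of all pairs of the 15911 probe sets, so the count does not set the members apart. The log2 ratio of 204326_x_at over the other 8 was higher in spheroids by 0.73 (over MT1H) to 1.32 (over MT1E 212859_x_at), which follows from its having the largest difference, and the 8 pairs share it. Over the other MT1X set, 208581_x_at, its log2 ratio was -0.74 and -0.77 in spheroids, against -1.52 and -1.87 in monolayers. The spheroid cultures, which differed in level, were almost level in this ratio. MT1H over MT1E 212859_x_at gave -1.16 and -1.40 in spheroids, against -1.58 and -2.16 in monolayers. MT2A over the same MT1E set differed by 0.34 without overlap, and MT1X 208581_x_at over MT2A by 0.048 with overlap. With 2 arrays against 2, no exact two-sided permutation test of a single ratio can go below p = 0.333, so these ratios carry no call.

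Scaling bears on every signed value above. Each array had a trimmed mean of 500.1, and 27.5% to 30.0% of its probe sets exceeded 300. The Bacillus control probe sets, bacterial transcripts usually added to the RNA before labelling, stood at 2.208 and 1.499 times the monolayer mean in spheroids, against 0.943 and 1.06 in monolayers. Scaling to them moved the median log2 difference of all genes to -0.87, against -0.03 with the authors' scaling, and then 0 of 9 metallothionein probe sets were called by limma (0 of 9 at an unadjusted p under 0.05). Under that scaling 204326_x_at remained positive, at 0.62 (limma, adjusted p = 0.185), and the other 8 ranged from -0.10 (MT1H) to -0.69 (MT1E 212859_x_at). The SE also grew, for MT2A as a gene from 0.13 to 0.38 and for MT1G from 0.20 to 0.40. The sources do not say whether the Bacillus transcripts were added in equal amounts per RNA, so this scaling is an alternative only. The hybridization control sets had geometric means of 7408 and 7817 in spheroids and 6891 and 7097 in monolayers. The 3′ over 5′ signal of ACTB, a measure of RNA integrity and labelling, was 2.819 and 3.003 in spheroids and 2.64 and 2.34 in monolayers. That of GAPDH ran the other way, 0.931 and 0.921 in spheroids and 1.07 and 1.02 in monolayers. The mean signal of the 18S rRNA control sets was 2154 and 661 in spheroids and 5485 and 657 in monolayers, higher on the arrays numbered 1. The part of any of these in the results was not tested.

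Of 12 markers of colon epithelium, 5 had a mean above 300 (EPCAM, KRT8, KRT18, KRT19 and CDH1), and the 12 summed to 95559 and 91810 in spheroids, against 81100 and 88615 in monolayers. Without KRT18, the brightest, the sum was 62085 and 60605 in spheroids, against 50790 and 48346 in monolayers. CDH1 and KRT19 were higher, by 1.73 ± 0.19 and 0.79 ± 0.12 (limma, adjusted p = 4.15e-05 and 0.000265), and KRT8 differed by -0.49 ± 0.19 without a call (adjusted p = 0.0534). The means of KRT20, CDX1, CDX2, VIL1, CEACAM5, CEACAM6 and LGALS4 were not above 300. Of 13 markers of other cell types with a probe set, 12 had such low means and COL1A1, a collagen chain of fibroblasts, did not. On 1556499_s_at, the brightest of its probe sets, COL1A1 had 2222 and 2659 in spheroids, against 869 and 658 in monolayers. It was called higher (1.64 ± 0.20, limma, adjusted p = 5.95e-05), and its other probe sets are not given here. The 13 summed to 2838 and 3091 in spheroids, against 1767 and 1268 in monolayers, and without COL1A1 to 616 and 432 in spheroids, against 899 and 610 in monolayers. Marker sums and differences are as the authors scaled the arrays. Their values with Bacillus scaling, which moved the median log2 difference of all genes to -0.87, are not given here. The part of other cells in the results was not tested.

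The rest of the family was little represented. MT1HL1, a metallothionein-like gene outside the cluster, had 15334 and 15032 in spheroids, against 11921 and 14055 in monolayers on 211456_x_at. Spheroids were higher without overlap, but the log2 difference of 0.23 ± 0.13 was not called (limma, adjusted p = 0.184) and turned to -0.63 with Bacillus scaling. MT3, the form known from brain, gave 34.5 and 66.8 in spheroids, against 96.7 and 129 in monolayers. MT4, the form of stratified epithelia, gave 112 and 28.5 in spheroids, against 12.9 and 6.41 in monolayers. Neither was tested. MT1A, MT1B, MT1L, MT1DP, MT1IP, MT1JP, MT1P1 and MT1P3 had no probe set with 1 symbol.

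Genes that control or share the metal biology of metallothioneins were read from 8 lists of 90 genes, the 11 other family members included, of which 58 were tested. By limma 17 were higher and 11 lower (19.0% and 20.6% of all genes). With Bacillus scaling 4 were higher and 27 lower, against 183 (2.10%) and 3996 of all 8721 genes. The counts of single lists below are to be read against the same 19.0% and 20.6%.

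MTF1, the zinc sensor that drives these genes, gave 871 and 1078 in spheroids, against 1033 and 1502 in monolayers. The groups overlapped and the log2 difference was -0.35 ± 0.22 (limma, adjusted p = 0.222). It was -0.20 without spheroid 1, -0.62 without monolayer 1 and -0.088 without monolayer 2, and -1.19 and called with Bacillus scaling. Among 8 tested regulators 4 were higher and 0 lower, with a median of 0.35. EPAS1, the HIF-2α subunit, had 4093 and 4378 in spheroids, against 1312 and 1417 in monolayers (1.61 ± 0.16, limma, adjusted p = 1.22e-05), and differed by 0.96 over the mean of its probe sets. STAT3, which transmits cytokine signals, had 3262 and 2228 in spheroids, against 898 and 914 in monolayers (1.54 ± 0.20, adjusted p = 0.000104 by limma), with spheroid 1 again above spheroid 2. It differed by 1.05 over the mean of its probe sets. NR3C1, the glucocorticoid receptor, had 806 and 1036 in spheroids, against 594 and 480 in monolayers. Its difference of 0.74 ± 0.22 (limma, adjusted p = 0.0190) was not called without spheroid 2 (0.56) or monolayer 2 (0.59). SP1, a factor of GC-rich promoters, differed by 0.48 ± 0.17 (limma, adjusted p = 0.0365) and was not called without spheroid 2 (0.33), monolayer 1 (0.41) or monolayer 2 (0.54). With Bacillus scaling NR3C1 turned to -0.083 and SP1 to -0.37, and EPAS1 (0.76) and STAT3 (0.70) were no longer called.

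Zinc transporters were called in both directions. SLC30A1, the plasma membrane zinc exporter that MTF1 also induces, had 1625 and 1689 in spheroids, against 877 and 1239 in monolayers. Spheroids were higher without overlap, by 0.65 ± 0.20 (limma, adjusted p = 0.0208), but the call was lost without spheroid 1 (0.68), spheroid 2 (0.62) or monolayer 1 (0.41), and the sign turned with Bacillus scaling (-0.19). Its promoter held 1 match to the metal response element core and 3 to that of the hypoxia response element. It was the 1 called gene of 6 tested ZnT exporters, which move zinc out of the cytosol (median 0.21). SLC30A6, a Golgi transporter, had 954 and 960 in spheroids, against 1181 and 1402 in monolayers (-0.42 ± 0.19, limma, adjusted p = 0.0964). It was called with Bacillus scaling (-1.25, adjusted p = 0.00905 by limma).

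Of 10 tested ZIP importers, which bring zinc into the cytosol, 1 was higher and 3 lower, with a median of -0.19. SLC39A11 had 1493 and 1492 in spheroids, against 694 and 710 in monolayers (1.06 ± 0.18, limma, adjusted p = 0.000781), but was not called with Bacillus scaling (0.22). SLC39A14, a carrier of zinc, iron and manganese, had 3037 and 4096 in spheroids, against 5475 and 6610 in monolayers (-0.76 ± 0.17, limma, adjusted p = 0.00355). SLC39A3 and SLC39A6 were lower, with differences of -0.91 ± 0.23 and -0.43 ± 0.12 (limma, adjusted p = 0.00834 and 0.0120). SLC39A3 was not called without monolayer 1 (-0.69), nor SLC39A6 without spheroid 1 (-0.35). SLC39A10, an importer that MTF1 represses in mouse and zebrafish when zinc is high, gave 1847 and 2677 in spheroids, against 2226 and 2440 in monolayers. Its groups overlapped (-0.07 ± 0.19, limma, adjusted p = 0.804), and its sign turned without spheroid 1 (0.20).

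Copper genes were mixed as well, with 1 higher and 2 lower of 10 tested and a median of -0.22. CCS, the chaperone that loads copper into SOD1, had 686 and 775 in spheroids, against 326 and 346 in monolayers (1.05 ± 0.22, limma, adjusted p = 0.00296), but was not called with Bacillus scaling (0.24). SCO1, which delivers copper to cytochrome oxidase, had 1091 and 1132 in spheroids, against 1992 and 2394 in monolayers (-0.95 ± 0.18, limma, adjusted p = 0.00113). CUTC, a copper-binding protein, had 2001 and 1790 in spheroids, against 2921 and 3259 in monolayers (-0.70 ± 0.16, limma, adjusted p = 0.00440).

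Other genes that respond to metals, oxidants or low oxygen were called in both directions, 4 higher and 3 lower of 12 tested, with a median of -0.06. HMOX1, the haem-degrading enzyme induced by cadmium and oxidants, had 1711 and 1041 in spheroids, against 486 and 474 in monolayers (1.42 ± 0.24, limma, adjusted p = 0.000656), but was not called with Bacillus scaling (0.59). GCLM, the modifier subunit of the first enzyme of glutathione synthesis, had 2503 and 3284 in spheroids, against 6844 and 6407 in monolayers (-1.20 ± 0.16, limma, adjusted p = 0.000119). It differed by -0.80 over the mean of its probe sets. NQO1, a quinone reductase, differed by 0.72 ± 0.13 (limma, adjusted p = 0.00113) and by -0.15 with Bacillus scaling. NDRG1, induced by hypoxia and by metals such as nickel, differed by 4.91 ± 0.14 (limma, adjusted p = 4.63e-10), well beyond any metallothionein difference.

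Of 6 tested genes known to be induced by glucocorticoids, 5 were higher and 1 lower, with a median of 1.56. ZFP36, which destabilises mRNAs, had 12874 and 5766 in spheroids, against 821 and 1081 in monolayers (3.15 ± 0.28, limma, adjusted p = 6.79e-06). DUSP1, a MAP kinase phosphatase, had 11858 and 3819 in spheroids, against 704 and 906 in monolayers (3.03 ± 0.37, limma, adjusted p = 6.62e-05), and differed by 1.66 over the mean of its probe sets. As in the metallothioneins, spheroid 1 was the highest array for both, and for TSC22D3 and CEBPD. ERRFI1, the other gene called higher, was highest on spheroid 2 instead, with 33928 and 46419 in spheroids, against 16565 and 20194 in monolayers. It differed by 1.12 ± 0.15 (limma, adjusted p = 0.000117) and is named here after its values were seen. TSC22D3 and CEBPD were higher by 1.95 ± 0.25 and 1.17 ± 0.20 (limma, adjusted p = 9.87e-05 and 0.000681), CEBPD without a call under Bacillus scaling (0.33). The lower gene was FKBP5, a receptor co-chaperone named here after its values were seen, at -0.57 ± 0.14 (limma, adjusted p = 0.00720). Most of these genes also respond to other signals.

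Genes beside the cluster on chromosome 16 were called in both directions. Of 5 tested, 1 was higher and 2 were lower, with a median of -0.18. NUP93, a nuclear pore subunit, had 1229 and 1142 in spheroids, against 2856 and 2832 in monolayers (-1.24 ± 0.16, limma, adjusted p = 0.000114), and differed by -0.60 over the mean of its probe sets. NUDT21, an mRNA cleavage factor, had 6489 and 7176 in spheroids, against 10222 and 9847 in monolayers (-0.55 ± 0.13, limma, adjusted p = 0.00417). BBS2, a subunit of the ciliary BBSome, had 938 and 870 in spheroids, against 525 and 510 in monolayers (0.77 ± 0.20, limma, adjusted p = 0.0103), and was not called without spheroid 1 (0.72) or with Bacillus scaling (-0.056).

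**Figure D4:**
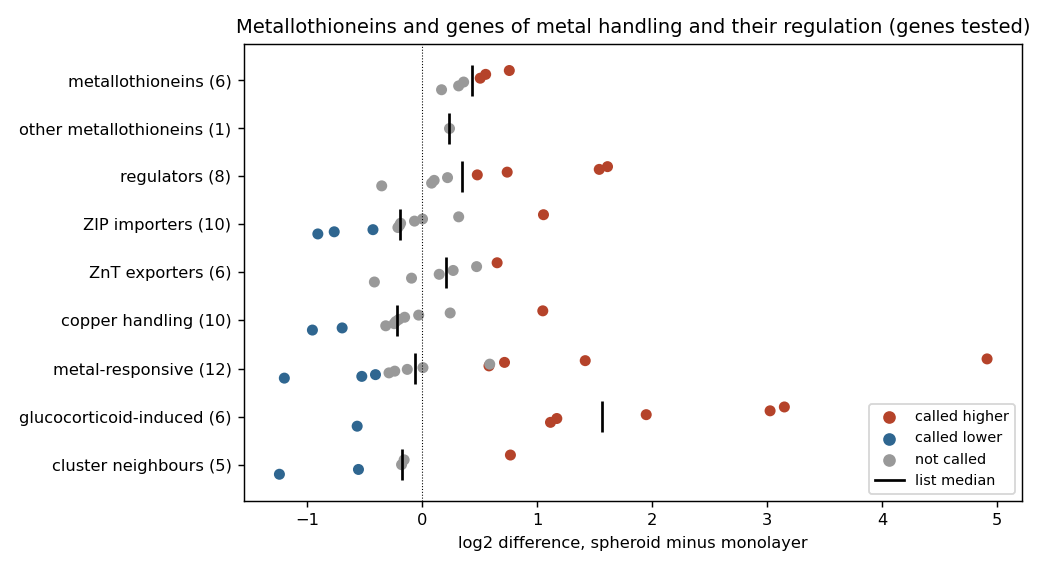
Log2 difference, spheroid minus monolayer, of each tested gene in the metallothioneins and 8 lists, with the number tested in parentheses. Red points were called higher and blue points lower by limma at an adjusted p under 0.05, grey points were not called, and black bars are list medians (0.43 for the 6 tested metallothioneins, which all turned below 0 with Bacillus scaling).

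The genes whose profile over the 4 arrays was most like that of the metallothioneins were SIRT5, NTSR1, LAMC1, STX5 and ROBO3. Likeness was the Euclidean distance between log2 values centred on each gene's mean, taken to the median profile of the 6 tested members, which was 0.47 and -0.04 in spheroids and -0.29 and -0.09 in monolayers. The distances were 0.051, 0.055, 0.079, 0.092 and 0.096, against a median of 0.760 over 8715 other genes. The members themselves lay at 0.098 (MT1F) to 0.478 (MT1H). SIRT5, a mitochondrial deacylase, had 942 and 632 in spheroids, against 550 and 622 in monolayers, so that spheroid 1 stood out and the other 3 arrays were close. None of the 5 was called (limma, adjusted p = 0.0877 to 0.332), although LAMC1 was without spheroid 2 (0.71) and over the mean of its probe sets (0.54). Over only 4 arrays, likeness describes these arrays and no more.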

How the data were processed

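Total RNA of 2 spheroid and 2 monolayer cultures was labelled with biotin and put on Affymetrix arrays, 1 channel each. The authors normalized the arrays with MAS5 (version not given in the sources used here), so each deposited value is the intensity of a probe set on a linear scale. Of 54675 probe sets, 62 were controls, 41091 had 1 gene symbol in the platform annotation, 1801 had several and 11721 were not listed. RefSeq (GRCh38.p14) changed 0 symbols. Scaling to one mean per array leaves any change in total mRNA per cell out of the values.

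A constant of 32 was added to each signal before log2, so changes of dim probe sets are understated. Probe sets with a mean signal above 300 were tested (15911). The value of 300 is that of the study's filter for gene set enrichment, which also asked for present calls, not used here. The brightest probe set of each gene gave 8721 genes. Spheroids and monolayers were compared in both sets with limma 3.58.1 (R 4.3.3; lmFit, eBayes with an intensity trend, 2 residual degrees of freedom), two-sided, with Benjamini-Hochberg adjustment over everything tested. A call is an adjusted p under 0.05. The fit was tested on simulated data. The number of arrays limits the precision, and the median SE of a log2 difference was 0.19. Gene values come from the fit of 8721 genes, and values given with a metallothionein probe set from that of 15911 probe sets.

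The members and lists were chosen with earlier results of these data known. All member probe sets were named, with up to 4 called genes per list by size (the 2 with the smallest p where fewer than 2 were called), SLC30A1, MTF1 and SLC39A10, and the 5 genes most like the members. As alternatives, the filter, the constant, the scaling, the choice of probe set and the variance trend were varied, a replicate block was fitted, single arrays were left out, and the methods' t-test (stated for other assays) was run.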

Additional observations from a re-analysis of the deposited data

How the results depend on the processing

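Constants of 16 or 64 and a threshold of 100 changed no count of called metallothioneins. Of the 6 tested members 3 were called, and of their 9 probe sets 4. Quantile normalization called 3 and 5, and taking the mean of a gene's probe sets called 3 members. Without the filter 1 member and 1 probe set were called, and without the intensity trend 1 and 1. The member was MT1H (limma, adjusted p = 0.0478 and 0.0390), whereas MT1X (0.0793 and 0.0705) and MT2A (0.0717 and 0.0692) missed the threshold. Among probe sets, MT1X 208581_x_at (limma, adjusted p = 0.133 and 0.0927), MT2A (0.127 and 0.0917) and MT1H (0.0823 and 0.0545) missed it. Of all features, 6.76% of genes and 3.53% of probe sets were called higher without the filter, and 17.4% and 15.5% without the trend. In the main fit these shares were 19.0% and 16.8%. By limma, 3 members had an unadjusted p under 0.05 in either fit, as in the main one. The cause was not tested. With 1 array left out, 0 (without spheroid 1) to 6 (without monolayer 2) members were called and 1 (without spheroid 1) to 8 (without spheroid 2) probe sets, while 13.9% to 17.2% of all genes and 11.1% to 15.6% of all probe sets were called higher. Without monolayer 2, MT1E was called at 0.33, MT1F at 0.41 and MT1G at 0.50, and without spheroid 2, MT1F at 0.59 and MT1G at 0.71. The lone array of a group is then assumed to vary like the other group. Without spheroid 1 the sign turned for MT1E (-0.023 to 0.36 over arrays left out, as a gene and on 212859_x_at) and SLC39A10 (-0.33 to 0.20). Of 47 values of named genes and probe sets, 9 lost their call without the filter, 7 without the trend and 30 with the methods' t-test, while 2 gained one with quantile normalization and 3 with the replicate block.

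Scaling to the Bacillus controls called 0 members and 0 probe sets by limma (0 and 0 at an unadjusted p under 0.05). It turned the sign of MT1E (-0.69, also 212859_x_at), MT1F (-0.54, also 217165_x_at), MT1G (-0.50, also 204745_x_at), MT1H (-0.10, also 206461_x_at), MT1X (-0.31, also 208581_x_at), MT2A (-0.36, also 212185_x_at), 216336_x_at (-0.49), 213629_x_at (-0.27), MT1HL1 (-0.63), NR3C1 (-0.083), SP1 (-0.37), SLC30A1 (-0.19), NQO1 (-0.15), BBS2 (-0.056), SIRT5 (-0.44), NTSR1 (-0.39), LAMC1 (-0.39), STX5 (-0.45) and ROBO3 (-0.36). It ended the calls of EPAS1 (0.76), STAT3 (0.70), SLC39A11 (0.22), CCS (0.24), HMOX1 (0.59) and CEBPD (0.33), added those of SLC30A6 (-1.25) and MTF1 (-1.19), and over all genes it called 183 higher and 3996 lower, against 1656 and 1799. The methods' t-test called 0 members, 0 probe sets, 0 list genes and 2 of all genes after adjustment, and 0, 1, 18 and 2648 at an unadjusted p under 0.05. Without sets ending in _x_at or _s_at, 2232 of 6094 genes were called, against 3455 of 8721, and no tested metallothionein was left. The mean of a gene's probe sets ended the calls of SP1 (0.42), SLC39A14 (-0.56), SLC39A6 (-0.44), SLC30A1 (0.51) and NUDT21 (-0.40), and added that of LAMC1 (0.54). It gave 1.02 for MT1X, 0.96 for EPAS1, 1.05 for STAT3, 1.66 for DUSP1, -0.80 for GCLM and -0.60 for NUP93. Quantile normalization added the calls of MT1HL1 (0.34) and 216336_x_at (0.45).

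The numbers of spheroids and monolayers name cultures and are not said to pair them. Same-numbered arrays deviated from their group means with a correlation of 0.32 across genes, which are not independent. With the replicate block, 3 members, 5 probe sets (213629_x_at added, adjusted p = 0.0143, as were SLC30A6, 0.0396, and LAMC1, 0.0324, among genes), 31 list genes against 28, and 4415 of all genes against 3455 were called. MT1M and 210472_at gave signals near the unspiked controls, where a difference could not be read.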
